A study of Mus musculus with 6 samples.

Results

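The 36 genes described here are the integrin and laminin genes of a mouse bead array, taken by name as every gene whose symbol in the array annotation is Itga or Itgb followed by a letter or digit, or Lama, Lamb or Lamc followed by a digit. They are 28 integrin-named genes, read by 45 probes, and 8 laminin genes, read by 9 probes, of 16593 genes read by 23978 probes. The rule used symbols and no measured value. It also takes in 4 genes that are not integrin chains: Itgb1bp1, Itgb1bp2 and Itgb3bp encode proteins that bind a beta chain, and Itgbl1 encodes a secreted protein built of repeats like those of a beta chain.

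Integrins are cell surface receptors made of an alpha and a beta chain, and each pairing decides what the cell holds on to. Laminins are large proteins of the basement membrane, each assembled from an alpha, a beta and a gamma chain, and they are among the main ligands of epithelial integrins. In epithelia attached by hemidesmosomes, integrin alpha6 beta4 binds the laminin that contains Lamb3. Integrins with the beta1 chain bind laminins, collagens or fibronectin, and those with the alphav chain bind ligands that carry an RGD motif and can activate latent TGF-beta. In the incisor, ameloblasts rest on such a membrane while they mature the enamel, and inherited defects of LAMB3 and ITGB6 in people impair enamel.

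RNA came from dental tissue micro-dissected from lower incisors of C57BL/6 mice at 4 wk. Control mice (CON) were MED1 fl/fl littermates without Cre, and knockout mice (KO) were MED1 fl/fl with Cre driven by the keratin 14 promoter, so Med1, a subunit of the Mediator coactivator, is removed from Krt14-expressing epithelium and kept in the other cells of the tissue. The tissue was taken at the cervical loop (CL), where the dental epithelium renews, at the secretory stage (Sec) and at the maturation stage (Mat), the site where KO incisors grow hair. Each of the 6 arrays carried RNA pooled from 3 mice, with a single array for every genotype and stage, so a difference between CON and KO at a stage has no replicate, no error and no test.

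Med1 itself read 9.58 in CON against 9.04 in KO at CL, 9.35 against 8.72 at Sec, and 9.15 against 8.66 at Mat, as normalized intensity on the log2 scale, the scale of all levels below. Whether its probe lies in the deleted exons is not given in the sources used here. All 5 ameloblast markers on the array (among them Amelx, Ambn and Enam) were detected on all 6 arrays. The 9 markers of epidermal and hair differentiation were all detected in KO at Sec and at Mat, against 4 on each of the other 4 arrays. In bulk tissue, fewer cells of a type and less RNA per cell cannot be told apart.

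A probe was called detected when its detection p-value, set by the negative-control beads, was under 0.01, and each gene took its brightest probe. Of the 36 genes, 27 were detected on at least 1 array and 19 on all 6. The 9 detected on none were the collagen receptor chain Itga2, the leukocyte chains Itga4, Itgad, Itgam, Itgax, Itgb2 and Itgb2l, the platelet and osteoclast chain Itgb3, and the alphav partner Itgb8. Genes detected in either genotype were considered at a stage. Those whose 2 arrays differed by at least 1.5-fold, with detection on the brighter array, were counted as higher or lower.

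Few of these genes differed between genotypes at CL, and 10 or more passed the fold at the later stages, most of them lower in KO. At CL 3 of 23 genes were higher in KO (Itga9, Itgav and Itgb6) and 0 were lower, where 1.81% of all 8794 genes considered were higher and 2% lower. At Sec 3 of 25 were higher (Itga3, Itgav and Itgb1bp2) and 7 lower (Itga5, Itgb1, Itgb1bp1, Lama1, Lama2, Lamb1 and Lamb2), against 11.7% of 9073 genes higher and 15.2% lower. At Mat 1 of 26 was higher (Itgb1bp2) and 11 were lower (Itga5, Itga6, Itga9, Itga11, Itgb1, Itgb5, Itgb7, Itgbl1, Lama1, Lamb1 and Lamc1), against 12.6% of 9218 genes higher and 18.4% lower.

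The medians over the genes considered followed the same course. The median difference, KO minus CON, was -0.06, -0.20 and -0.47 at the 3 stages in turn, and over all genes it was -0.02, -0.10 and -0.14. A gene detected in 1 genotype entered at its bound, and the value at CL is that of Itga2b, whose detected level lay under the limit set for the other array. Over the 21, 21 and 22 genes that both genotypes detected, the median was -0.02, -0.16 and -0.47, against -0.02, -0.12 and -0.15 over all genes detected in this way. At Mat 20 of the 26 genes were below 0, as were 5693 of all 9218 genes. Of the endothelial and pericyte markers, all 8 of 8 detected were below 0 in KO at Sec and at Mat, where 5374 of 9073 and 5693 of 9218 genes were. By the fold 4 of the 8 were lower at Sec and 7 at Mat, against 15.2% and 18.4% of all genes. Their summed intensity was 4333 in CON and 2534 in KO at Sec, then 6724 and 3500.0 at Mat. Marker lists differed in direction: the 4 detected osteoclast markers were lower at both stages and the 4 melanocyte markers higher. The part of these cell types in the differences of the genes described here was not tested.

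**Figure D1:**
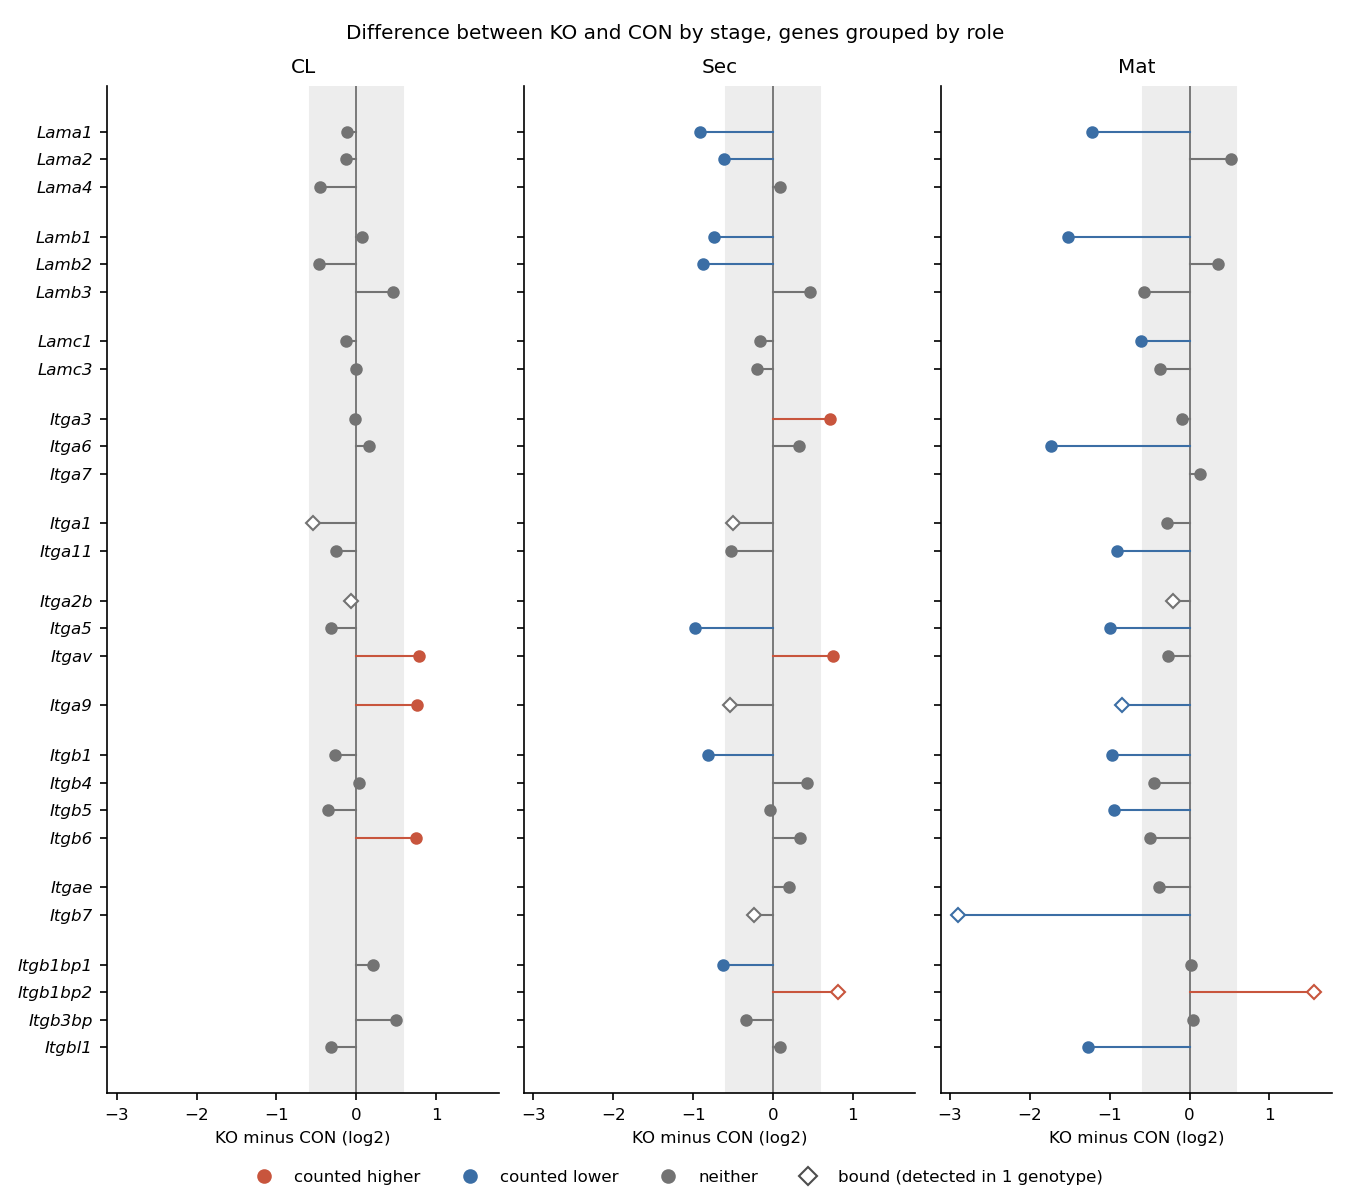
Difference in normalized log2 intensity between KO and CON for the 27 detected genes, in rows grouped by role, at CL, Sec and Mat. Each point compares 1 array with 1 array, the grey band is a fold under 1.5, and open diamonds are bounds where 1 genotype did not detect the gene; points lie mostly within the band at CL and mostly to the left of 0 at Mat.

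The genes of the hemidesmosome, the anchor that ties basal epithelial cells to the basement membrane, were above CON in KO at Sec and below it at Mat. Lamb3, the beta chain of that laminin, read 12.19 in CON against 12.65 in KO at CL, 13.38 against 13.84 at Sec, and 13.71 against 13.14 at Mat. Its differences of 0.45, 0.46 and -0.57 correspond to folds of 1.37, 1.38 and 1.49, each under 1.5. In CON its level was highest at Mat, whereas in KO it was highest at Sec.

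Itga6, the alpha chain of the hemidesmosome receptor, read 7.02 in CON against 7.18 in KO at CL, 7.30 against 7.63 at Sec, and 8.86 against 7.12 at Mat. CON at Mat stood apart from the other 5 arrays, which lay between 7.02 and 7.63, and KO there was 3.34-fold lower (log2 difference -1.74). Itgb4, the beta chain that pairs with it, read 12.21 in CON against 12.25 in KO at CL, 12.16 against 12.59 at Sec, and 12.68 against 12.23 at Mat. The differences of Itgb4 were 0.04, 0.43 and -0.45, with a fold under 1.5 at every stage, and its second probe gave -0.11, 0.55 and -0.45. When arrays were scaled to a common median in place of quantiles, Lamb3, Itgb4 and Itgb6 also passed 1.5-fold at Mat, as lower in KO.

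The other genes of the hemidesmosome went the same way. Of the 6 partners listed (Col17a1, Dst, Plec, Cd151, Krt5 and Krt14), all 6 were above 0 at Sec, with a median of 0.29 and none past 1.5-fold, and all 6 were below 0 at Mat, with a median of -0.50 and 3 of them lower by the fold, as 18.4% of all genes were. Those 3 were the collagen Col17a1 (-0.76), the linker Dst (-0.93) and the tetraspanin Cd151 (-0.63). Over all genes, 3693 of 9073 were above 0 at Sec and 5693 of 9218 below 0 at Mat. Of the partners listed, Plec (-0.01) and Krt14 (-0.12) lay close to 0 at Mat. The basal keratinocyte markers, which share 4 genes with this list, had medians of 0.49 at Sec and -0.40 at Mat, with Krt15 going the other way at Mat (2.98 at Sec and 3.80 at Mat), and whether the hemidesmosome genes differ beyond them was not tested.

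**Figure D2:**
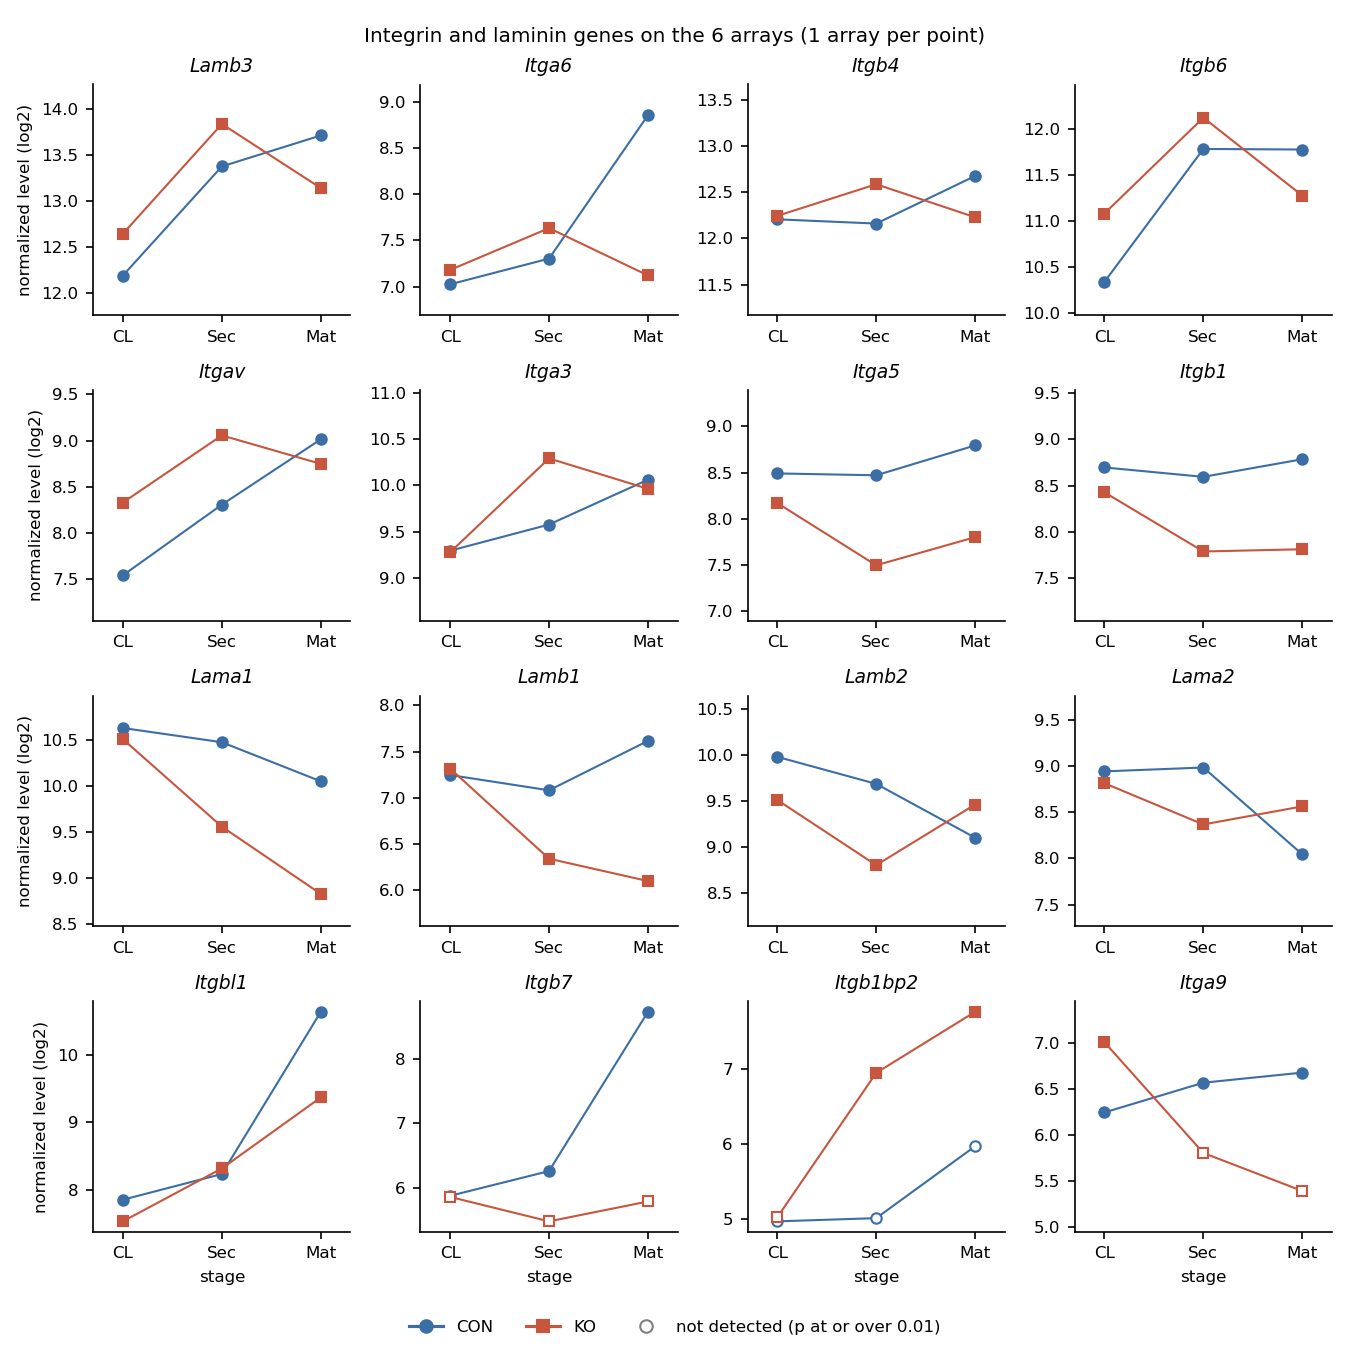
Normalized log2 intensity of 16 genes at CL, Sec and Mat in CON (circles) and KO (squares), 1 array per point, with open symbols where the probe was not detected. The lines of CON and KO cross between Sec and Mat for Lamb3, Itga6, Itgb4, Itgb6, Itgav, Itga3, Lamb2, Lama2 and Itgbl1, and those of Itga5, Itgb1 and Lama1 stay apart.

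The alphav chain and its beta6 partner were higher in KO at CL. Itgav, the alpha chain shared by several RGD receptors, read 7.54 in CON against 8.33 in KO at CL, 8.30 against 9.06 at Sec, and 9.01 against 8.75 at Mat. It was 1.73-fold higher in KO at CL and 1.68-fold higher at Sec, and at Mat the difference was -0.27. Itgav was the only one of the 36 genes counted as higher in KO at both CL and Sec, although its fold passed 1.5 at neither stage in the deposited normalized values.

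Itgb6, the epithelial partner of Itgav that activates latent TGF-beta, read 10.34 in CON against 11.08 in KO at CL, 11.78 against 12.12 at Sec, and 11.77 against 11.27 at Mat. KO was 1.67-fold higher at CL, and the differences at Sec and Mat were 0.34 and -0.50. Its other probes gave 0.63 and 0.49 at CL and -0.55 and -0.53 at Mat, so that all 3 had the same sign at those stages, but at Sec they gave -0.03 and -0.05 against 0.34. Itgb5, a further alphav partner found in many cell types, differed by -0.36 at CL and -0.04 at Sec and was 1.92-fold lower in KO at Mat, at 12.45 in CON and 11.51 in KO.

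Of the 6 detected genes listed for TGF-beta ligands and their latency proteins, 3 were lower at Sec, against 15.2% of all genes, and 3 at Mat, against 18.4%. The medians were -0.52 and -0.50, where those of all genes were -0.10 and -0.14. The ligand Tgfb1 was lower at both stages (-0.60 and -1.38), as was Tgfb2 (-0.80 and -0.68), while Tgfb3 (-0.84) was lower at Sec and the latency protein Ltbp1 (-0.92) at Mat. Ltbp4, another latency protein, went the other way, at 0.72 and 0.85.

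The fibronectin receptor chains Itga5 and Itgb1 were lower in KO at both Sec and Mat. Itga5 read 8.49 in CON against 8.17 in KO at CL, 8.47 against 7.49 at Sec, and 8.79 against 7.80 at Mat. The 3 KO arrays were all below the 3 CON arrays, with KO 1.97-fold lower at Sec and 1.99-fold lower at Mat. The second probe of Itga5 differed by -0.40, -0.36 and -1.03, which is past 1.5-fold at Mat and not at Sec.

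Itgb1, the beta chain shared by the largest group of matrix receptors, read 8.70 in CON against 8.43 in KO at CL, 8.59 against 7.79 at Sec, and 8.79 against 7.81 at Mat. By this probe KO was 1.75-fold lower at Sec and 1.97-fold lower at Mat. The second Itgb1 probe read 7.45 in CON against 7.52 in KO at CL, 7.94 against 7.91 at Sec, and 8.39 against 7.98 at Mat, with differences of 0.06, -0.03 and -0.41. The probes of Itgb1 thus disagreed, and with their mean, or in the deposited normalized values (-0.56), the gene was not counted at Sec.

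**Figure D3:**
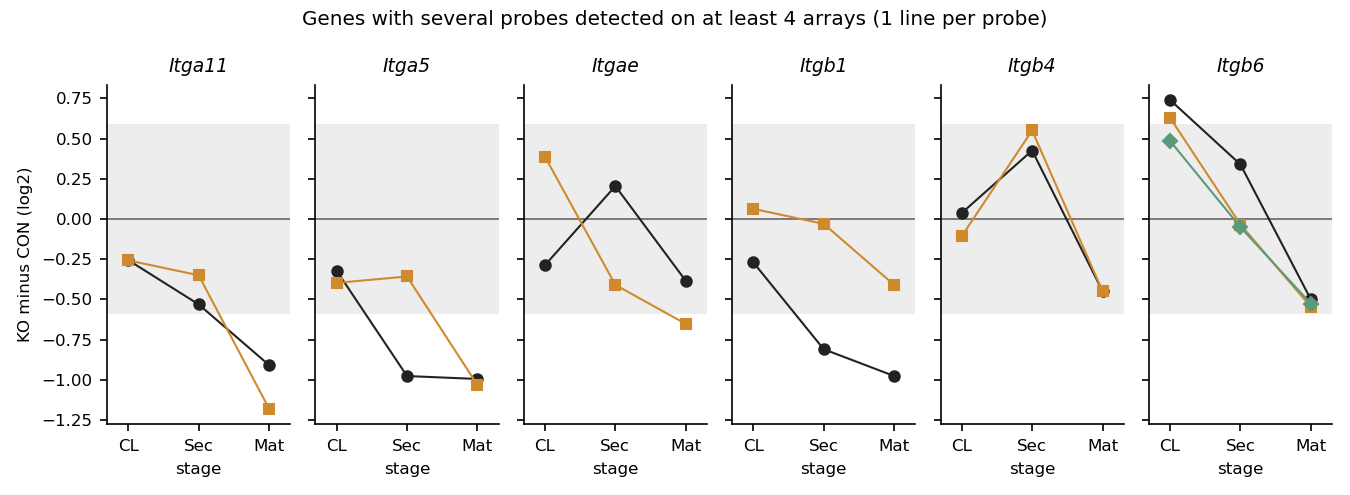
Difference in log2 intensity between KO and CON at each stage for the 6 genes with several probes detected on at least 4 arrays, 1 line per probe and the brightest probe in black; the grey band is a fold under 1.5. The probes of Itga5, Itgb4 and Itgb6 ran closest at Mat, and those of Itgb1 and Itgae lay apart at every stage.

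The laminin chains Lama1 and Lamb1, which together with Lamc1 can form the laminin of early basement membranes, were also lower at both stages. Lama1 read 10.62 in CON against 10.50 in KO at CL, 10.47 against 9.55 at Sec, and 10.05 against 8.83 at Mat. Its level declined from CL to Mat in both genotypes, and KO was 1.89-fold lower at Sec and 2.33-fold lower at Mat.

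Lamb1 read 7.25 in CON against 7.32 in KO at CL, 7.08 against 6.34 at Sec, and 7.62 against 6.10 at Mat. KO was 1.67-fold lower at Sec and 2.87-fold lower at Mat, where its KO level was near the lowest detected values of the arrays (5.83 to 6.19). In the deposited normalized values Lamb1 differed by -0.34 at Sec and was not counted there. Lamc1, the gamma chain shared by most laminins, read 11.29 in CON against 11.16 in KO at CL, 11.40 against 11.24 at Sec, and 11.70 against 11.09 at Mat. It was 1.52-fold lower in KO at Mat, just past the threshold, and its differences at CL and Sec were -0.13 and -0.16.

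The promoters of genes counted in the same direction at 2 stages are shown because these genes met the fold at more than 1 stage. There were 6 such genes: Itga5, Itgb1, Lama1 and Lamb1 (lower), Itgav and Itgb1bp2 (higher). In the deposited normalized values only Itga5 and Lama1 were counted at 2 stages. RefSeq windows of 300 bases around the start, on the build GRCm38.p6, were at hand for 4 of them. Capitals mark matches on either strand to the motifs TGANTCA (AP-1), TGGGAA (CSL, the factor of Notch signaling), GGGCGG (GC box) and GGAATG (TEAD); matches to TGGGAA and GGAATG can share letters.
Itgb1, chr8:128685404-128685703, plus strand: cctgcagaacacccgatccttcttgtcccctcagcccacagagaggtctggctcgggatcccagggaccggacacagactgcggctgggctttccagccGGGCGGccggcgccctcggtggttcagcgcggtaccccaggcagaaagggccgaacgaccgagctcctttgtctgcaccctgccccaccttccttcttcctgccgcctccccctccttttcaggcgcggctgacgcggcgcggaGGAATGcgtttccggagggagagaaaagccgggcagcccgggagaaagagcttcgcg
Itga5, chr15:103366742-103367041, minus strand: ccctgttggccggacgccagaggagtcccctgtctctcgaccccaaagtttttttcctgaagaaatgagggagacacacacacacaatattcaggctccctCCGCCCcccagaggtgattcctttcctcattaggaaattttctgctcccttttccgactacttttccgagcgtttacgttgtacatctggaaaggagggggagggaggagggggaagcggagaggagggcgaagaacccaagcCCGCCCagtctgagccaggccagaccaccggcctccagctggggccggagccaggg
Lamb1, chr12:31265043-31265342, plus strand: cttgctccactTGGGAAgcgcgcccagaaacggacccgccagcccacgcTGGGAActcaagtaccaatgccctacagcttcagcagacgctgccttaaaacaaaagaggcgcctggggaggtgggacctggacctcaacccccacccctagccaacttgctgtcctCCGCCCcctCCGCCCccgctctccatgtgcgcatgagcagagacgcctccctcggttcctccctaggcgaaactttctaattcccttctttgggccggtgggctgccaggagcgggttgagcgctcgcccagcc
Itgav, chr2:83724147-83724446, plus strand: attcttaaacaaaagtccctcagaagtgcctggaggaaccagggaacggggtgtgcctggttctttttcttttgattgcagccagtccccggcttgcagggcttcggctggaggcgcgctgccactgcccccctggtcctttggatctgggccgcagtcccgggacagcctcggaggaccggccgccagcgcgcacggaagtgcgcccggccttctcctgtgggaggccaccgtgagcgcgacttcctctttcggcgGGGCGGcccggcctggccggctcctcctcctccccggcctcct

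Each of these 4 windows held at least 1 GC box, Itga5 and Lamb1 2 each. Lamb1 also held 2 matches to TGGGAA and Itgb1 held 1 to GGAATG, while TGANTCA was in none of the 4. Windows were available for 24 of the 36 genes, 27 windows in all. Among them 44.4% held a GC box, 18.5% TGGGAA, 11.1% TGANTCA and 7.41% GGAATG, where the shares over all 32851 windows of the genome were 35.7%, 25.6%, 7.81% and 14.7%. A match is a run of letters and not a binding site.

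The remaining laminin chains did not share the pattern of Lama1 and Lamb1. Lama2, the alpha chain of muscle and nerve basement membranes, read 8.94 in CON against 8.82 in KO at CL, 8.99 against 8.37 at Sec, and 8.04 against 8.56 at Mat. Lamb2, the beta chain of vessel and synaptic basement membranes, read 9.98 in CON against 9.51 in KO at CL, 9.69 against 8.81 at Sec, and 9.10 against 9.46 at Mat. Both were lower in KO at Sec, by 1.53-fold and 1.84-fold, and above CON at Mat, by 0.52 and 0.36, and for both the CON level was lowest at Mat.

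Lamc3, a gamma chain of restricted tissues, differed by -0.01, -0.20 and -0.37, and its level declined from 9.05 at CL to 8.41 at Mat in CON. Lama4, the alpha chain of endothelial laminin, differed by -0.45 at CL and 0.09 at Sec and was detected in neither genotype at Mat. Of the 8 laminin genes, 0 were thus counted as higher at any stage, where 1.81%, 11.7% and 12.6% of all genes were at CL, Sec and Mat. At Sec 4 were lower, where 15.2% of all genes were, and 3 of the 7 considered were lower at Mat, where 18.4% were. The median of the laminins was -0.41 at Sec and -0.57 at Mat.

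Among the other alpha chains, Itga3, a laminin receptor chain of basal epithelium, read 9.29 in CON against 9.28 in KO at CL, 9.58 against 10.29 at Sec, and 10.06 against 9.96 at Mat. KO was 1.64-fold higher at Sec alone. Itga7, the laminin receptor chain of muscle, was detected only at Mat, at 6.82 in CON and 6.95 in KO.

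Itga11, the collagen receptor chain of fibroblasts, read 12.13 in CON against 11.88 in KO at CL, 11.97 against 11.44 at Sec, and 12.42 against 11.51 at Mat. KO was below CON at every stage and passed 1.5-fold at Mat, where it was 1.88-fold lower and a second probe differed by -1.18. Itga1, another collagen receptor chain, was detected in CON at all 3 stages and in KO only at Mat, with a difference of -0.28 there. Itga2b, the platelet chain, was detected on 2 arrays near the detection limit and passed the fold at no stage.

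Itga9, a receptor chain for tenascin and related ligands, read 6.25 in CON and 7.01 in KO at CL, a 1.70-fold higher level in KO. In CON it read 6.57 at Sec and 6.68 at Mat, and KO did not detect it at either stage, which makes it at least 1.80-fold lower in KO at Mat. All these levels lay close to the detection limit. In the deposited normalized values Itga9 differed by 0.33 at CL and -0.32 at Mat and was counted at neither.

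Itgb7 and Itgbl1 had the steepest increase of the group between Sec and Mat in CON. Itgb7, a beta chain of lymphocyte homing receptors, was not detected in either genotype at CL, read 6.26 in CON at Sec and 8.72 in CON at Mat, and was detected on no KO array. At Mat it was at least 7.44-fold lower in KO, and its deposited intensity was 503.5 in CON and 179.9 in KO. Array medians lay between 175.3 and 193.8.

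Itgae, the alpha chain that pairs with Itgb7 on lymphocytes within epithelia, had a smaller difference at Mat. It was undetected at CL, read 6.43 in CON and 6.64 in KO at Sec, and 7.20 and 6.82 at Mat. Its second probe detected at those stages differed by -0.41 at Sec and -0.65 at Mat, the latter past 1.5-fold. In CON that probe was the brighter at both stages, at 6.71 and 7.46. The lymphocyte markers pointed several ways at Mat: Cd3g was detected in KO alone and was at least 1.56 higher on the log2 scale, Cd79b was lower by 0.93, and Cd3e and Cd3d were detected in KO alone, at 6.06 and 6.48. Of the 8 lymphocyte markers on the array, 1 was detected in CON and 4 in KO at Mat, with summed intensities of 195.4 and 420.4, and their part in the Itgb7 difference was not tested.

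Itgbl1 read 7.85 in CON against 7.53 in KO at CL, 8.23 against 8.32 at Sec, and 10.64 against 9.37 at Mat. It went up between Sec and Mat in both genotypes, by 2.41 in CON and 1.05 in KO on the log2 scale, and KO was 2.41-fold lower at Mat. At Mat 4 of 4 detected osteoclast markers were also lower in KO, against 18.4% of all genes. Their summed intensity there was 19521 in CON and 8455 in KO. At Sec 4 of 4 were lower too, against 15.2%, while Itgbl1 differed by 0.08 and Itgb7 by a bound of -0.24. The part of osteoclasts in the differences of Itgb7 and Itgbl1 was not tested.

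Itgb1bp2 encodes melusin, a protein of striated muscle that binds the beta1 chain. It was detected on 2 arrays only, at 6.94 in KO at Sec and 7.75 in KO at Mat, and was at least 1.75-fold and at least 2.95-fold higher in KO there. Skeletal muscle markers moved with it: their summed intensity was 4022 in CON and 27704 in KO at Sec, and 20753 in CON and 38206 in KO at Mat. In CON the muscle gene Mylpf read 9.01 at Sec and 11.72 at Mat, and Itgb1bp2, at 5.02 and 5.97, was not detected. The part of muscle in the Itgb1bp2 difference was not tested.

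The other binding proteins had differences on either side of 0. Itgb1bp1, a regulator of beta1 activation, differed by 0.21, -0.63 and 0.02 and was counted as lower at Sec, and Itgb3bp, a nuclear protein of the centromere that also binds the beta3 chain, differed by 0.50, -0.34 and 0.04.

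**Figure D4:**
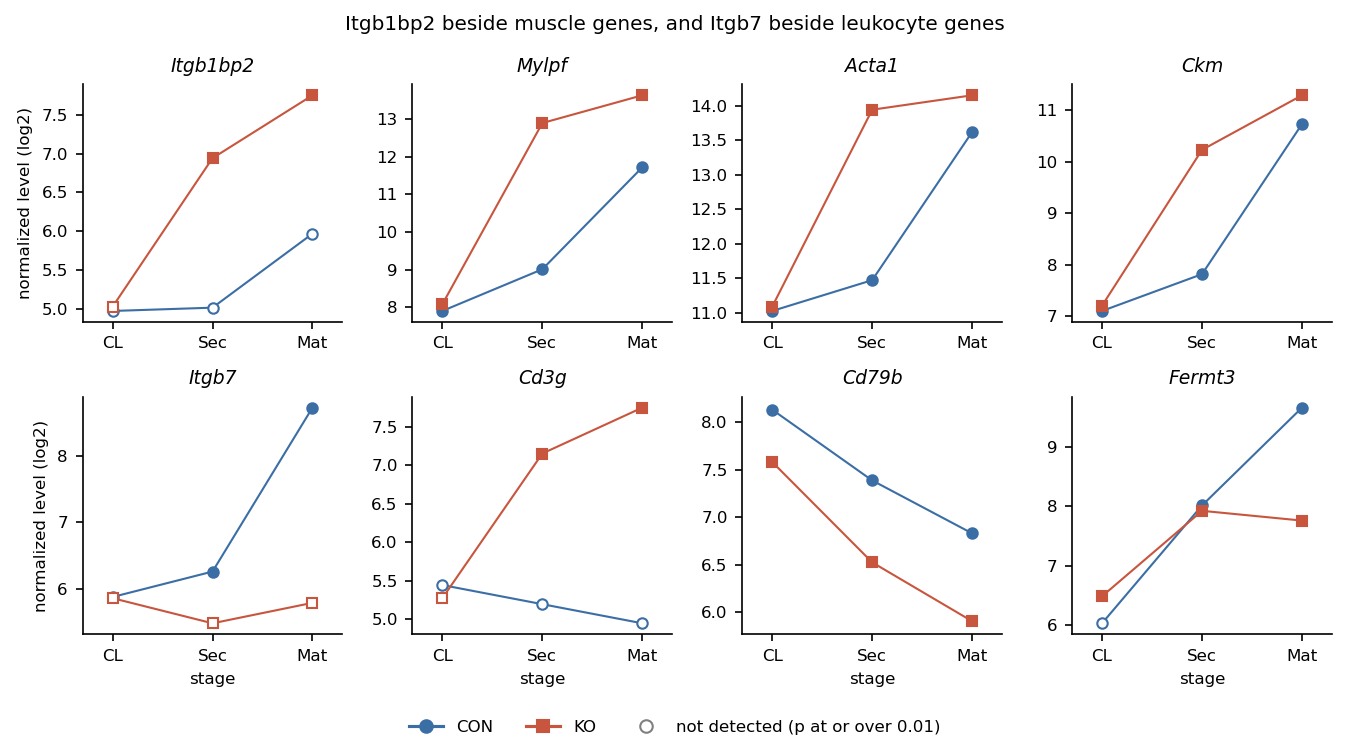
Normalized log2 intensity at CL, Sec and Mat in CON (circles) and KO (squares), 1 array per point, for Itgb1bp2 beside the muscle genes Mylpf, Acta1 and Ckm (upper row) and Itgb7 beside the leukocyte genes Cd3g, Cd79b and Fermt3 (lower row); open symbols were not detected. Itgb1bp2 and the muscle genes are above CON in KO at Sec and Mat, and Itgb7 and Fermt3 are higher in CON at Mat.

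The differences at Sec and at Mat were then set side by side for the 20 genes that both genotypes detected at both stages. Of these, 8 (40%) were above 0 at Sec and below 0 at Mat: Itga3, Itga6, Itgae, Itgav, Itgb4, Itgb6, Itgbl1 and Lamb3. For Itgae and Itgb6 the side at Sec rests on a single probe, that with the highest mean over the arrays, and Itgbl1 was 0.08 above CON there. Over all 7751 genes measured in this way the share was 20.2%. None of the 20 was above 0 at both stages, against 19.3% of all genes, 8 (40%) were below 0 at both, against 43.1%, and 4 (20%) were below at Sec and above at Mat, against 17.2%.

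By the fold of 1.5, 4 of the 20 (20%) were lower at both stages, Itga5, Itgb1, Lama1 and Lamb1, and the share over all genes was 5.23%. In the deposited normalized values Itgb1 and Lamb1 lost their call at Sec, so that 2 were left, and the share over all genes was not computed there. None of the 8 genes above CON at Sec and below it at Mat passed the fold at both stages: Itga3 and Itgav passed it at Sec, and Itga6 and Itgbl1 at Mat. Whether a gene's difference at Sec and its difference at Mat are unlike was not tested, since each rests on 2 arrays.

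**Figure D5:**
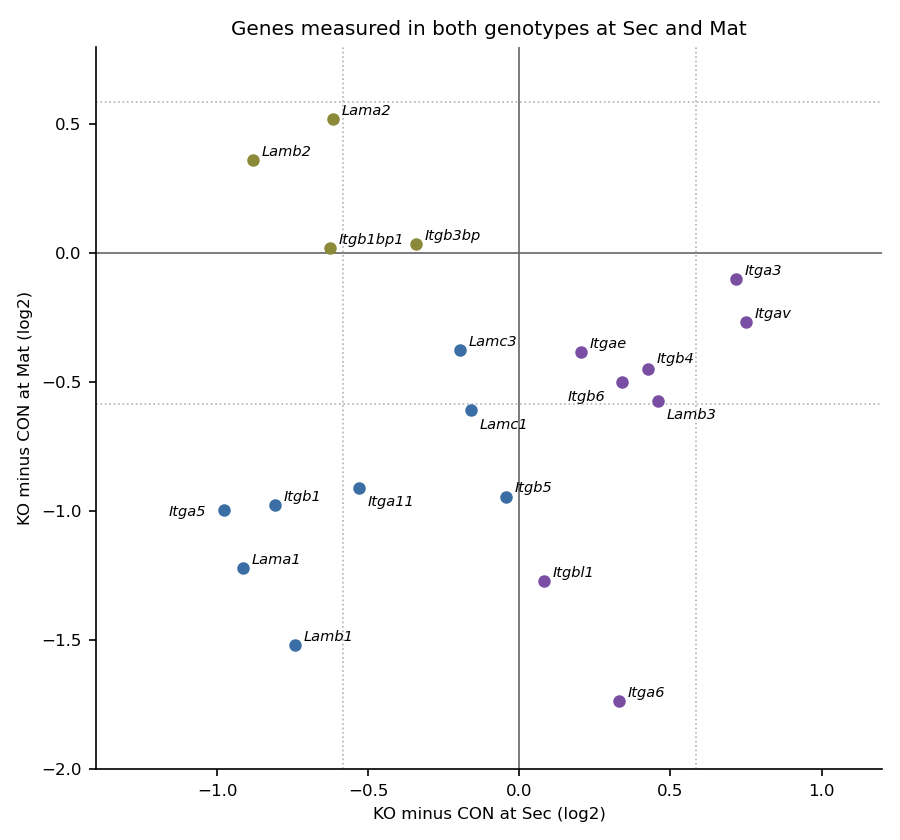
Difference between KO and CON in log2 intensity at Sec (horizontal) against that at Mat (vertical) for 20 genes detected on all 4 arrays of those stages; dotted lines mark 1.5-fold. The genes in violet, lower right, were above CON at Sec and below it at Mat, those in blue were below at both, and those in olive were below at Sec alone.

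Along the CON incisor, most genes that passed the fold were higher at the later stage. From CL to Sec, 3 of 24 genes were higher (Itgav by 0.77, Itgb6 by 1.44 and Lamb3 by 1.18 on the log2 scale) and 0 lower, where 6.58% of all genes were higher and 5.58% lower. From Sec to Mat, 6 of 25 were higher and 1 lower, where the shares were 13.3% and 13.1%. The 6 were all integrin-named, as were 17 of the 25 considered: Itga6 (1.56), Itga7 (at least 0.69), Itgae (0.77), Itgav (0.71), Itgb7 (2.46) and Itgbl1 (2.41). The 1 lower gene was Lama2 (-0.94).

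Along the KO incisor more of these genes passed the fold from CL to Sec than from Sec to Mat, the reverse of CON. The same held over all genes. From CL to Sec, 7 of 24 genes were higher and 8 lower in KO, where 14.5% and 19.3% of all genes were. The 7 were Itga3 (1.02), Itgae (at least 0.61), Itgav (0.73), Itgb1bp2 (at least 0.92), Itgb6 (1.04), Itgbl1 (0.79) and Lamb3 (1.19). The 8 were Itga5, Itga9, Itgb1, Itgb1bp1, Itgb3bp, Lama1, Lamb1 and Lamb2, with differences from -0.98 to -0.64.

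From Sec to Mat, 4 of 25 were higher in KO (Itga7, Itgb1bp2, Itgbl1 and Lamb2) and 4 lower (Itgb6, Lama1, Lamb3 and Lamc3), where 7.54% and 7.22% of all genes were. Itgb6 fell by 0.85 and Lamb3 by 0.70 on the log2 scale between those KO arrays, while in CON they differed by less than 1.5-fold. The stage differences of CON and KO were not tested against each other.

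The only test that the 6 arrays allowed was a linear model in limma with stage and genotype as terms, in which the residual shows how alike the genotype difference was at the 3 stages and not how alike mice are. Over the 8697 genes detected on at least 3 arrays, the limma fit called 0% for genotype at an adjusted p of 0.05, and of the 23 genes described here it called 0, with a smallest adjusted p of 0.496. At an unadjusted p under 0.05, 5 of the 23 were lower in KO by limma and 0 higher, against 5.97% of all genes lower and 3.89% higher. In alternative limma fits the number under 0.05 in either direction was 3 with the mean of all probes, 6 with CL left out and 0 with Sec left out. The 5 of the main fit were Itga1, Itga5, Itga11, Itgb1 and Lama1, of which Itga1 was not detected in KO at CL and Sec.

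Among these, Itga5 had the smallest p in limma, with an estimate of -0.76 ± 0.21 (SE) and an unadjusted p of 0.0147. The estimate was -0.69 ± 0.20 for Itgb1, -0.75 ± 0.26 for Lama1 and -0.56 ± 0.19 for Itga11. For Itgb4 and Lamb3, whose difference was above 0 at Sec and below 0 at Mat, it was 0.01 ± 0.22 and 0.11 ± 0.27. Of the 23 estimates 17 were below 0, with a median of -0.30 against -0.09 over all genes.

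For the step from CL to Sec, limma called 0.0115% of the genes and 0 of the 23 at the adjusted threshold, with a smallest adjusted p of 0.346 among them. At an unadjusted p under 0.05, limma had 3 of the 23 higher at Sec, Itgae (1.26 ± 0.23), Itgb6 (1.24 ± 0.34) and Lamb3 (1.19 ± 0.33), and 0 lower. Itgae was undetected at CL, so its estimate is set against values below detection, and the bounds for that step were 0.24 in CON and 0.61 in KO. For Sec to Mat it called 0% of all genes and 0 of the 23, with 1 higher at an unadjusted p under 0.05, Itgbl1 (1.73 ± 0.36), and 1 lower, Lamc3 (-0.57 ± 0.20).

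Other genes of cell adhesion were counted in the same way. Of 22 further basement membrane genes detected at Sec, 3 were higher and 6 lower in KO (median -0.26), beside 11.7% and 15.2% of all genes. At Mat 2 of 21 were higher and 2 lower (median -0.23), beside 12.6% and 18.4%. Among the 6 were the basement membrane protein Vwa2 (-1.54), the Fraser complex gene Frem1 (at least 1.53 lower), the matrix protein Fbln1 (-1.24) and the nidogen Nid2 (-0.98). At Mat Vwa2 (0.71) and the collagen IV chain Col4a5 (1.33) were higher in KO, and the collagen IV chain Col4a1 (-0.79) and Papln (-0.87) lower.

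Of 20 cytoplasmic partners of integrins detected, 3 were higher and 3 lower at Sec, and 0 were higher and 7 lower at Mat, with medians of -0.33 at both stages; the shares of all genes were 11.7% and 15.2% at Sec and 12.6% and 18.4% at Mat. The kindlins, which switch integrins on, differed among themselves. The epithelial Fermt1 was 8.82 in CON and 10.45 in KO at Sec (1.63), the widely expressed Fermt2 was lower there (-0.94), and the leukocyte Fermt3 was lower at Mat (-1.90), at 9.66 in CON and 7.76 in KO. Tns4, an epithelial tensin, differed by 0.91 at Sec and by -1.07 at Mat.

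Of the ligands other than laminins, 5 of 14 were lower and 0 higher at Sec, and 7 of 15 were lower and 1 higher at Mat, with medians of -0.50 and -0.56. All genes, for comparison, were lower in 15.2% and 18.4% of cases and higher in 11.7% and 12.6%. Tnc, the tenascin that Itga9 and alphav receptors bind, was lower at both, with 13.42 in CON and 12.42 in KO at Sec and 13.44 and 12.37 at Mat, as were Ibsp (-1.05 and -1.33), a bone sialoprotein with an RGD motif, and Vcam1 (-0.77 and -1.79), a ligand of integrins on leukocytes. Fgg, a fibrinogen chain, was 10.69 in CON and 6.43 in KO at Mat (-4.26), and Thbs1 (1.10) was the 1 ligand higher there.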

How the data were processed

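Total RNA was labelled and hybridized to Illumina mouse bead arrays, and the signal was extracted in GenomeStudio (version not given). The authors deposited a mean bead intensity for each of 25697 probes, neither background-subtracted nor scaled, with a detection p-value per probe, and a second table of intensity values normalized between arrays, which served as an alternative. Of the probes, 1719 carried no gene symbol and were left out. With R 4.3.3 and limma 3.58.1, neqc corrected the background from the detection p-values, normalized by quantiles and took log2 after an offset of 16; a gene took its probe with the highest mean.

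Arrays detected from 46.1% to 49.8% of their probes at a p-value under 0.01. Where a single array of a comparison detected a gene, the dimmer array was set to its own value or to its lowest detected value (5.83 to 6.19), whichever was higher, and the difference is a bound. The number of arrays limits the precision. The fold of 1.5 is that of the study's methods; their p needs replicates. limma was fitted on genes detected on at least 3 arrays (genotype and stage as terms, Benjamini-Hochberg adjustment, 2 residual degrees of freedom). The procedure was tested on simulated data with the same genotype difference at every stage, no stage effect and every gene detected. These arrays differ from that setting, so the simulation does not show how the fit performs on them. All 36 symbols were found in the RefSeq table, and promoters came from RefSeq on GRCm38.p6.

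Named with values on all arrays were the hemidesmosome chains, genes counted at 2 stages or differing by at least 1 on the log2 scale, Itgb1 and Lamc1; the values of Itgb6, Itga3, Itga9, Itga11, Itgae, Lama2 and Lamb2 were added after they were seen. Members and lists were chosen with earlier results of these data known.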

Additional observations from a re-analysis of the deposited data

Results flagged for a closer look

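Itga9 was above CON in KO at CL, by 0.76 on the log2 scale, and below it at Mat, by a bound of -0.85, so its difference pointed in opposite directions at these stages by the fold rule. In the deposited normalized values the differences were 0.33 and -0.32, and neither was counted. Each difference rests on 1 array per genotype, and the difference between stages was not tested.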

How the results depend on the processing

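No difference between KO and CON that was itself counted changed its sign under the alternatives run. Below the fold signs could change, as for Itga11 at CL, from -0.26 to 0.05 with the mean of all probes. In the deposited normalized values, which keep the background and so compress folds, the counts of genes in KO against CON were 1 higher at CL, 1 higher and 3 lower at Sec and 9 lower at Mat, and the counts by stage were 3 higher from Sec to Mat in CON, 3 higher and 3 lower from CL to Sec in KO, and 1 higher from Sec to Mat in KO. At a 2-fold threshold they were 0 higher at CL, 0 higher and 0 lower at Sec and 5 lower at Mat (Itga6, Itgb7, Itgbl1, Lama1 and Lamb1), and by stage 3 higher and 0 lower from Sec to Mat in CON, 3 higher and 0 lower from CL to Sec in KO, and 1 higher and 0 lower from Sec to Mat in KO. With the mean of all probes 5 genes were lower from CL to Sec in KO, and Itgb1 was no longer counted at Sec between genotypes. Scaling to a common median added Itgb4, Itgb6 and Lamb3 to the genes lower at Mat (14 in all) and Itga11 to those lower at Sec (8), with the median of all genes at Mat moving from -0.14 to -0.21. A detection p-value under 0.05 gave 10 lower at Sec and 12 at Mat. In limma no alternative called any of the genes for genotype, and leaving out CL gave 93 calls over all genes and a smallest adjusted p of 0.189 among the genes described. No paired analysis was possible because each genotype has a single array per stage and the labels give no replicate numbers. Medians over genes detected in both genotypes were chosen after seeing the data. Signal over background limits Itga1, Itga7, Itga9, Itgae, Lama4 and, in KO, Lamb1, whose levels lie near the lowest detected values, and Itgb7 and Itgb1bp2 in the genotype that did not detect them.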

Other observations

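Of the 4 detected enzymes that process laminins and integrins, 2 were counted as lower in KO at Mat, where 18.4% of all genes were. Mmp14, a membrane-bound protease that cleaves laminin chains, differed by -0.41 at CL, -0.29 at Sec and -0.87 at Mat, and Mmp2, which it activates, by -0.10, -1.01 and -0.60. Bmp1, which trims laminin gamma and alpha chains, and Furin, which cleaves integrin alpha chains, were within 1.5-fold at every stage. The list's median was -0.59 at Mat, against -0.14 over all genes.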
